A study of Mus musculus with 8 samples.

Results

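Ribosomal protein genes encode the protein part of the cytosolic ribosome, the particle that translates messenger RNA. The genes were taken by symbol, Rpl or Rps followed by a number and at most one closing a, x or l. The symbols gave 76 genes of the 32285 features in the count tables, 46 of the large subunit (Rpl) and 30 of the small subunit (Rps). Of the 76, 4 are minor paralogs (Rpl3l, Rpl10l, Rpl39l and Rps27l). The pattern left out ribosomal genes with other names, such as Rps3a1, Rplp0 and Rpsa, and these are given as a separate list of 12 genes.

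The mature ribosome holds one copy of most of these proteins, and their mRNAs are short, abundant and long-lived in the cytoplasm. Many begin with a tract of pyrimidines next to the cap, known as the 5′ terminal oligopyrimidine tract, through which growth signals set their translation. Cells that divide or secrete much protein are known for a high demand for ribosomes, and in nuclei these mRNAs are seen both as new transcripts and as cytoplasmic RNA that stays with the nucleus. Inherited loss of 1 copy of some of these genes affects bone, blood or brain, Rps19 and Rpl5 in anaemia and Rpl38 in axial skeleton patterning being textbook examples.

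Nuclei came from the petrous temporal bone (PTB), the skull bone around the paraflocculus, and from the paraflocculus/flocculus (PF/F), 2 lobules of the cerebellum. The mice were littermates at postnatal day 5.5 (P5.5), of lines backcrossed to C57BL/6J, either wild type (WT) or Tbx1+/-, which lack 1 copy of the transcription factor gene Tbx1 in every cell. Each tissue and genotype had 2 libraries, replicate 1 and replicate 2, and each library pooled nuclei of 5 mice. The 8 libraries were treated as the replicates, and within a tissue only 2 stand against 2. Both tissues were dissected from these mice, and the number of mice the study gives per genotype leaves none over for a second tissue, so the PTB and PF/F libraries of one genotype and replicate number appear to share their mice. That leaves 4 independent pools. The labels do not name the mice. The study used separate batches of animals, and the replicate numbers were taken to stand for these batches, although the labels give only the number. Tbx1 itself was at 38.9 and 39.4 CPM (UMI counts scaled to 1e6 per library) in the WT PTB libraries and at 26.3 and 35.7 CPM in the Tbx1+/- PTB libraries, while the PF/F libraries held 4 to 13 Tbx1 UMIs each.

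The annotated nuclei numbered 5981 to 9977 in the PTB libraries and 9153 to 13835 in the PF/F libraries, with 33515253 to 52902902 unique molecular identifiers (UMIs) per library. Of these UMIs, 459805 to 1333895 per library belonged to the 76 genes. No annotated nucleus lacked a ribosomal protein UMI, and the median nucleus had 61 to 123 such UMIs from 38 to 56 of the genes. The PTB annotation held only connective tissue, chondrocyte, osteoblast and osteoclast types. Other bone cells of the study, immune cells and neurons among them, had no type in it. Barcodes of at least 1000 genes without a type numbered 4191 to 9183 per PTB library and 689 to 1649 per PF/F library. In PF/F, 14 types were set against a marker list, and all 14 had a higher summed level of it than every type of another list in each of the 4 libraries. RL.early and Progenitors had no marker list, so these names are the deposited ones, unchecked. In PTB this held for 8 of 15 types, and the connective tissue (CT) types, CP1, CP6 and the hypertrophic chondrocyte/Osteoblasts did not stand apart by the marker lists used, so those names are the deposited ones. The counts were not corrected for free RNA, barcodes shared between any pair of libraries were 0.313% to 0.652% of the smaller library, and ribosomal protein genes have many processed copies in the genome, whose reads can be lost from the counted gene.

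The sequences around the annotated start are shown because pyrimidine tracts there define the known class of these mRNAs, and no link between them and any change was tested. RefSeq promoter windows of 300 bases on GRCm38.p6 were matched for 57 of the 76 genes, in 69 windows. The start base was a C followed by at least 4 pyrimidines in 12 of the 69 windows (17.4%), against 2.51% of all 32851 windows. The letters CCGGAAG, the core of the ETS site, were present on either strand in 34.8% against 8.86% of all windows, GCCATNTT, the YY1 letters, in 21.7% against 6.05%, the palindromic CGCG element that BANP binds in 10.1% against 0.466%, CACGTG in 11.6% against 7.15% and TATAAA in 7.25% against 13.6%. Each was counted on its own, also where matches overlapped, and a match describes the letters alone. The starts with the largest and the smallest change between replicates, among the matched genes, picked for their change, are shown as the 20 bases before the start and 10 from it, with the start base, or the pyrimidine tract where there is one, in capitals.
Rpl39 (chrX:37085213-37085242, minus strand): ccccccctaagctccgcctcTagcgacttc
Rps28 (chr17:33824553-33824582, minus strand): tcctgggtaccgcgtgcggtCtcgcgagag
Rpl38 (chr11:114668560-114668589, plus strand): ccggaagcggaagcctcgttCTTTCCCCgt
Rpl37 (chr15:5116593-5116622, plus strand): gaagtagtttcctgggcggaAgcttatcca
Rpl6 (chr5:121204481-121204510, plus strand): gatcttggtcacctcccgtcAttgcttata
Rpl10a (chr17:28328451-28328480, plus strand): gcgtggtggcgcccccccagCggccgcaaa
Rps2 (chr17:24720043-24720072, plus strand): tgcgtaggcagtcgagatctCgcgcttctt
Rpl10 (chrX:74270796-74270825, plus strand): ctatggttgttacagtggaaGataggccgc
The window of Rpl38 holds both CCGGAAG and a tract of 8 pyrimidines, and that of Rps28 holds the CGCG element across its start. The other windows hold none of these within these 30 bases.

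Ribosomal protein UMIs made up a share of all UMIs that differed between types by a factor of 2.17 in PTB and 2.80 in PF/F. Types are clusters of the same cells and genes, so their differences are described and not tested. In PF/F the granule neuron progenitors (GNP), which divide in the outer layer of the postnatal cerebellum, were highest on average, at 4.18%, 3.98%, 2.20% and 2.74% in WT 1, Tbx1+/- 1, WT 2 and Tbx1+/- 2. Purkinje nuclei, the large output neurons of the cerebellar cortex, were at 1.77%, 1.79%, 0.804% and 0.937% in the same libraries. GNP were above Purkinje in each library, by a ratio of 2.56 ± 0.322 (SD, n = 4).

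Of the 91 pairs of the 14 PF/F types with at least 20 nuclei in every library, 81 (89.0%) had the same order in all 4. Immune nuclei (3.06% ± 0.819, SD, n = 4) and Meningeal nuclei (2.84% ± 0.966) followed GNP (3.28% ± 0.960), and each of these neighbours changed places in 1 library. GABA.interneuron.progenitor (2.67% ± 0.788) came above Diff.Granule Neuron (2.37% ± 0.840) in all 4. The lowest shares were in GABA.interneuron (1.32% ± 0.516) and in Progenitors (1.17% ± 0.448), a type with 20 nuclei in its smallest library. Purkinje and GABA.interneuron could not be ordered, each being higher in 2 libraries. Endothelial nuclei (3.14% ± 1.12) and Pericyte nuclei (3.00% ± 0.938) had under 20 nuclei in some library and were left out of the order.

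In PTB the Matured chondrocyte nuclei were highest, at 4.36%, 3.38%, 2.79% and 3.98% in WT 1, Tbx1+/- 1, WT 2 and Tbx1+/- 2. Osteoclast nuclei, the bone-resorbing cells, were lowest in each library at 2.42%, 1.94%, 0.949% and 1.36%. The ratio of the 2 types was 2.35 ± 0.667 (SD, n = 4). The 13 types between them spanned a narrow range, from CT1 at 2.56% ± 0.725 to CP5 at 1.97% ± 0.700, and of the 14 neighbours in the order of all 15 types only 3 pairs kept it in all 4 libraries. Over all 105 pairs of types, 79 (75.2%) did. Osteoblasts, the bone-forming cells, were at 2.18% ± 0.645 and lay near the middle.

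**Figure D1:**
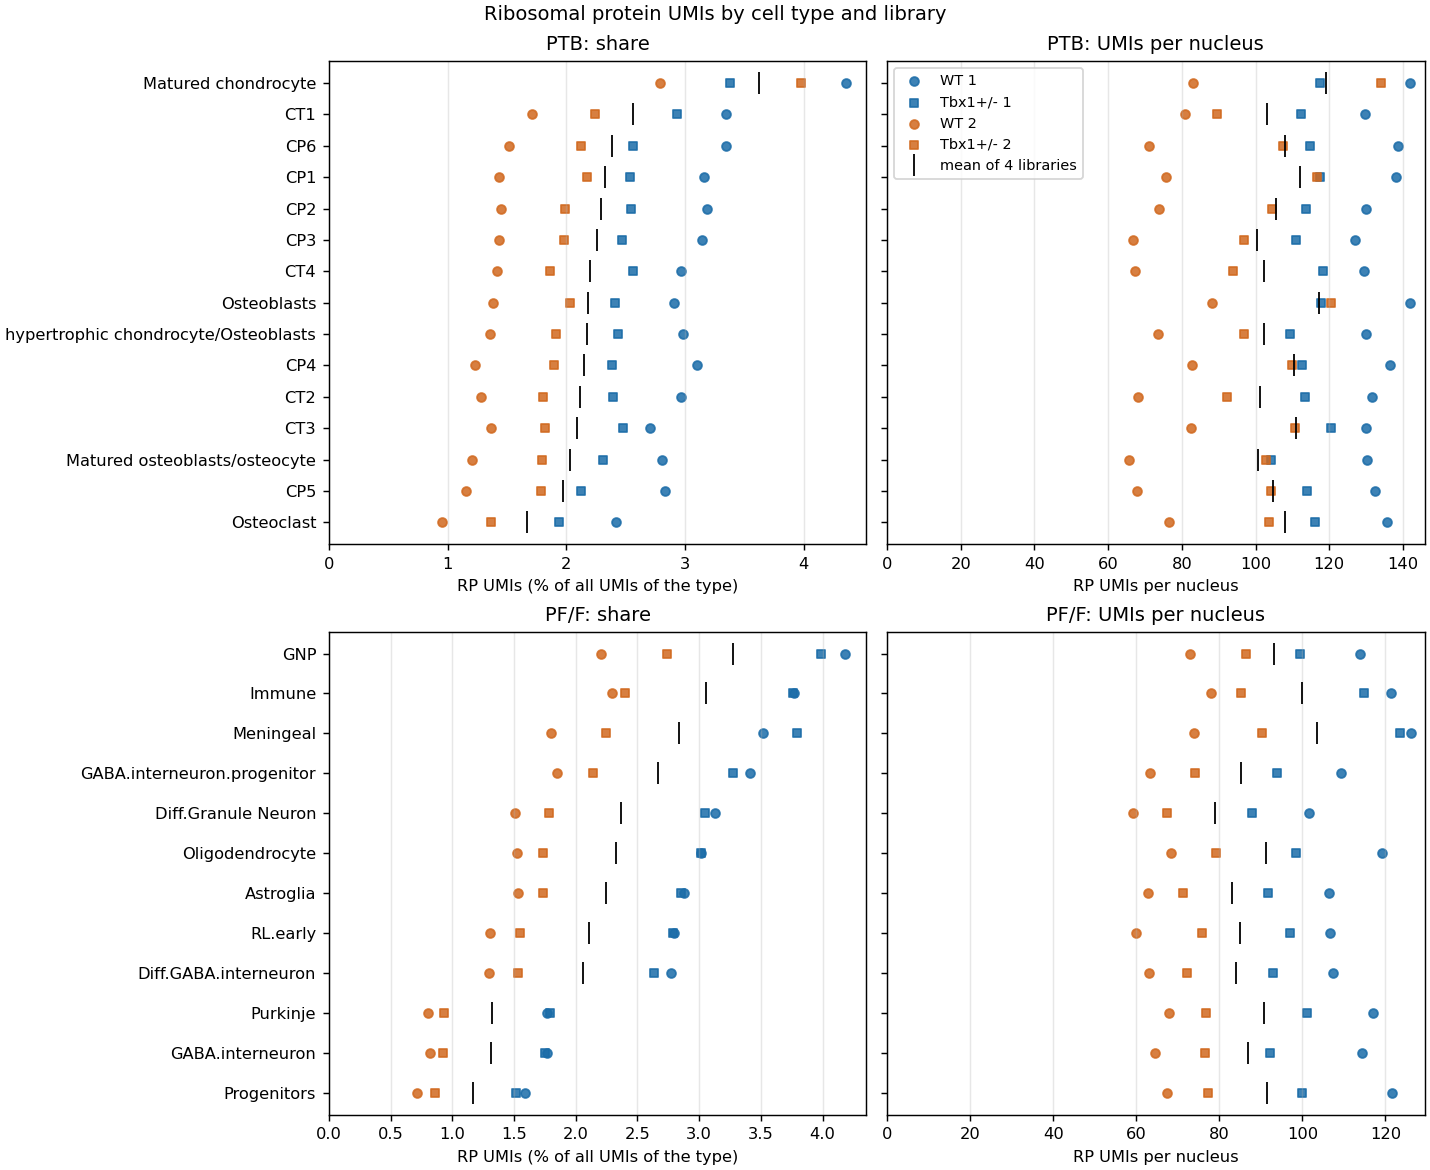
Ribosomal protein (RP) UMIs by cell type, as a percentage of all UMIs of the type on the left and as UMIs per nucleus on the right, in PTB (upper) and PF/F (lower) for types with at least 20 nuclei in every library, apart from types not reported here; each point is 1 library and the bar the mean of 4. Shares run from 1.17% to 3.28% on average in PF/F, while the means per nucleus lie between 79.1 and 103 UMIs, and in the share panels both replicate 1 libraries (blue) sit to the right of both replicate 2 libraries (orange) in all types plotted but Matured chondrocyte.

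The differences in share went with the depth of the nuclei. Total UMIs per nucleus differed 2.79-fold between the PF/F types, from 2923 in GNP to 8158 in Progenitors, whereas ribosomal protein UMIs per nucleus differed 1.31-fold, from 79.1 in Diff.Granule Neuron to 103 in Meningeal nuclei. In PTB total UMIs differed 2.08-fold, from 3273 in Matured chondrocyte to 6813 in Osteoclast, and ribosomal protein UMIs 1.19-fold, from 100.4 in CP3 to 119 in Matured chondrocyte. Across the types, the log2 share had a correlation with log2 UMIs per nucleus of -0.94 in PTB (15 types) and -0.97 in PF/F (14 types), both measures sharing the total in their make-up. In ribosomal protein UMIs per nucleus GNP over Purkinje stood at a ratio of 1.04 ± 0.0734 (SD, n = 4) and Matured chondrocyte over Osteoclast at 1.11 ± 0.126. With nuclei of 2000 to 4000 UMIs alone, an alternative added after the data were seen, the ratio of shares was 1.65 ± 0.150 for GNP over Purkinje and 1.37 ± 0.173 for Matured chondrocyte over Osteoclast. This window narrowed the gap in depth and did not close it, since the mean total was still 2788 UMIs in GNP against 3473 in Purkinje and 2731 in Matured chondrocyte against 3204 in Osteoclast. It held 5893 of the 9404 GNP but only 59 of the 1299 Purkinje nuclei, 12, 29, 9 and 9 in WT 1, Tbx1+/- 1, WT 2 and Tbx1+/- 2, the shallow end of a deep type. In it GNP had 92.0 ± 19.2 and Purkinje nuclei 72.0 ± 25.7 ribosomal protein UMIs per nucleus.

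Within each library, ribosomal protein UMIs rose less than all UMIs did from the shallowest to the deepest nuclei. Annotated nuclei of a library were put into 5 equal groups by total UMIs. In PF/F WT 1 the mean total rose from 1838 to 6314 UMIs between the lowest and the highest group, and ribosomal protein UMIs from 95.8 to 127 per nucleus. The share therefore fell from 5.21% to 2.01%. In PTB Tbx1+/- 2 the share fell from 3.00% in group 1 to 1.70% in group 4 and was 1.77% in group 5, the deepest. Over the 8 libraries the total rose 2.97-fold to 4.21-fold and ribosomal protein UMIs 1.31-fold to 1.42-fold in PF/F and 1.58-fold to 2.31-fold in PTB. The same held within types: in all 44 PF/F and all 56 PTB combinations of a library with a type of at least 100 nuclei, ribosomal protein UMIs rose less than the total, by a median of 1.40-fold against 3.24-fold in PF/F and 1.76-fold against 3.38-fold in PTB.

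This flat course was shared by the genes. Of the 76, 73 had a mean of at least 10 CPM, and their level per nucleus, averaged over the 8 libraries, rose between the lowest and highest depth groups by 1.43-fold to 1.99-fold, with a median of 1.65-fold. Among all 11292 genes at that level the median was 3.43-fold, and 5.57% rose less than 2-fold, as all 73 ribosomal protein genes did in this average. Library by library the rise differed. All 73 stayed under 2-fold in the 4 PF/F libraries and in PTB WT 1 and 71 in PTB Tbx1+/- 1, but only 13 did in PTB WT 2 and 3 in PTB Tbx1+/- 2, where the median was 2.23-fold and 2.31-fold. The median of all genes was 4.003-fold and 3.79-fold in these last libraries, and in them 2.16% and 2.19% of all genes stayed under 2-fold. In each library the median of the ribosomal protein genes was below that of all genes. The medians that follow are of the average over libraries. The ribosomal genes outside the symbol pattern had a median of 1.70-fold (11 genes), the mitochondrially encoded mRNAs of 2.08-fold (13 genes), translation factors and similar mRNAs of 2.17-fold (17 genes) and mitochondrial ribosomal proteins of 2.33-fold (75 genes). Ribosome biogenesis genes, whose products build the ribosome in the nucleolus, had a median of 2.86-fold (20 genes), and 5 RNAs known to stay in the nucleus, Malat1 among them, of 8.30-fold. The cytosolic ribosomal proteins and the nucleus-retained RNAs thus lay on opposite sides of the median of all genes.

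Barcodes with fewer than 1000 detected genes, which the study left out as poor nuclei, held fewer ribosomal protein UMIs than nuclei did, but the gap was smaller than for all UMIs. In the PTB libraries WT 1, Tbx1+/- 1, WT 2 and Tbx1+/- 2 these barcodes had 103, 79.6, 51.2 and 69.6 ribosomal protein UMIs each, and annotated nuclei had 134, 114, 76.9 and 108. In the PF/F libraries in the same order they had 84.96, 78.5, 50.4 and 59.8, against 107, 93.4, 64.1 and 73.5 in annotated nuclei. The ratio was 0.646 to 0.840 over the 8 libraries, whereas the ratio of all UMIs was 0.180 to 0.284. The library with the most ribosomal protein UMIs in these barcodes within a tissue also had the most per nucleus, WT 1 in both tissues, and WT 2 had the least in both. The share in these barcodes was 5.09% to 10.9%. Whether free RNA takes part in the level per nucleus was not tested.

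**Figure D2:**
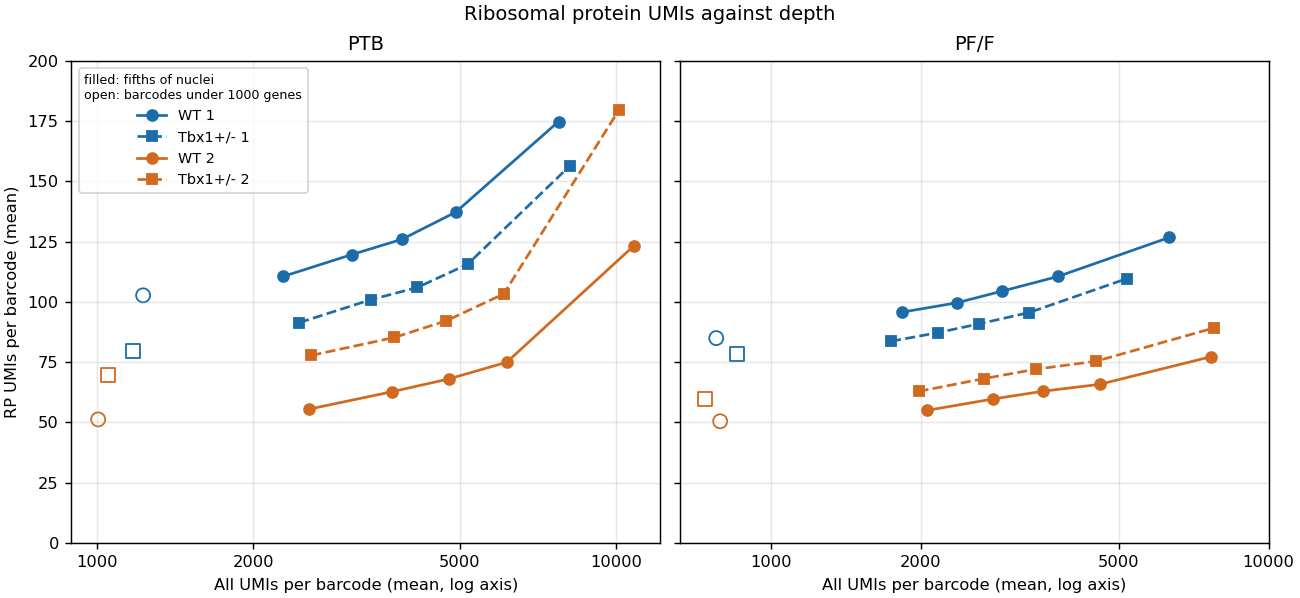
Mean ribosomal protein (RP) UMIs per barcode (linear axis) against mean total UMIs per barcode (log axis) in PTB (left) and PF/F (right); filled points are the 5 depth groups of annotated nuclei of a library joined by a line, and open points the barcodes with fewer than 1000 genes. In PF/F WT 1 the line rises from 95.8 to 127 while the total goes from 1838 to 6314, and the PF/F libraries keep their order in every depth group. In PTB the order changes: Tbx1+/- 2 goes from 77.8 to 180 and WT 1 from 111 to 175. The open point of each library lies at 0.646 to 0.840 of its mean per nucleus.

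To set types against libraries gene by gene, the sum of squares of log2(CPM + 1) over the types and libraries of a tissue was split into a part between types, a part between libraries and a remainder. In PF/F, 49 of the 73 genes varied more between types than between libraries, and in PTB 5 of 73 did. Among all genes this was 96% in PF/F (11413 genes) and 92.4% in PTB (10696 genes). The median between types was 53.4% in PF/F and 24.98% in PTB, against 74.4% and 68.4% for all genes, and the median between libraries was 42.5% and 69.9%, against 2.96% and 4.54%. Libraries therefore took a larger part of the variation of these genes than of other genes in both tissues. Rpl29, whose protein lies at the surface of the large subunit, had the largest part between types, at 82.6% in PF/F and 61.3% in PTB. This is a part of the gene's own variation and not the size of its differences between types. After division by the summed ribosomal protein count, its part between types was only 2.79% in PF/F and 3.14% in PTB. Without that division Rps29, a zinc-binding protein of the small subunit, was at or near the other end, at 23.2% and 8.95%, with 76.0% and 89.0% between libraries. Limiting the fit to types with at least 100 nuclei in every library, which removes Matured chondrocyte in PTB and Progenitors, GABA.interneuron and Immune in PF/F, moved the median between types to 11.5% in PTB and 38.3% in PF/F, and only 14 of 73 genes in PF/F and 0 in PTB then varied more between types, so the majority in PF/F turned. Without PTB WT 2 the PTB median was 40.9% with 30 genes, and without PTB WT 1 it was 36.4% with 14.

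**Figure D3:**
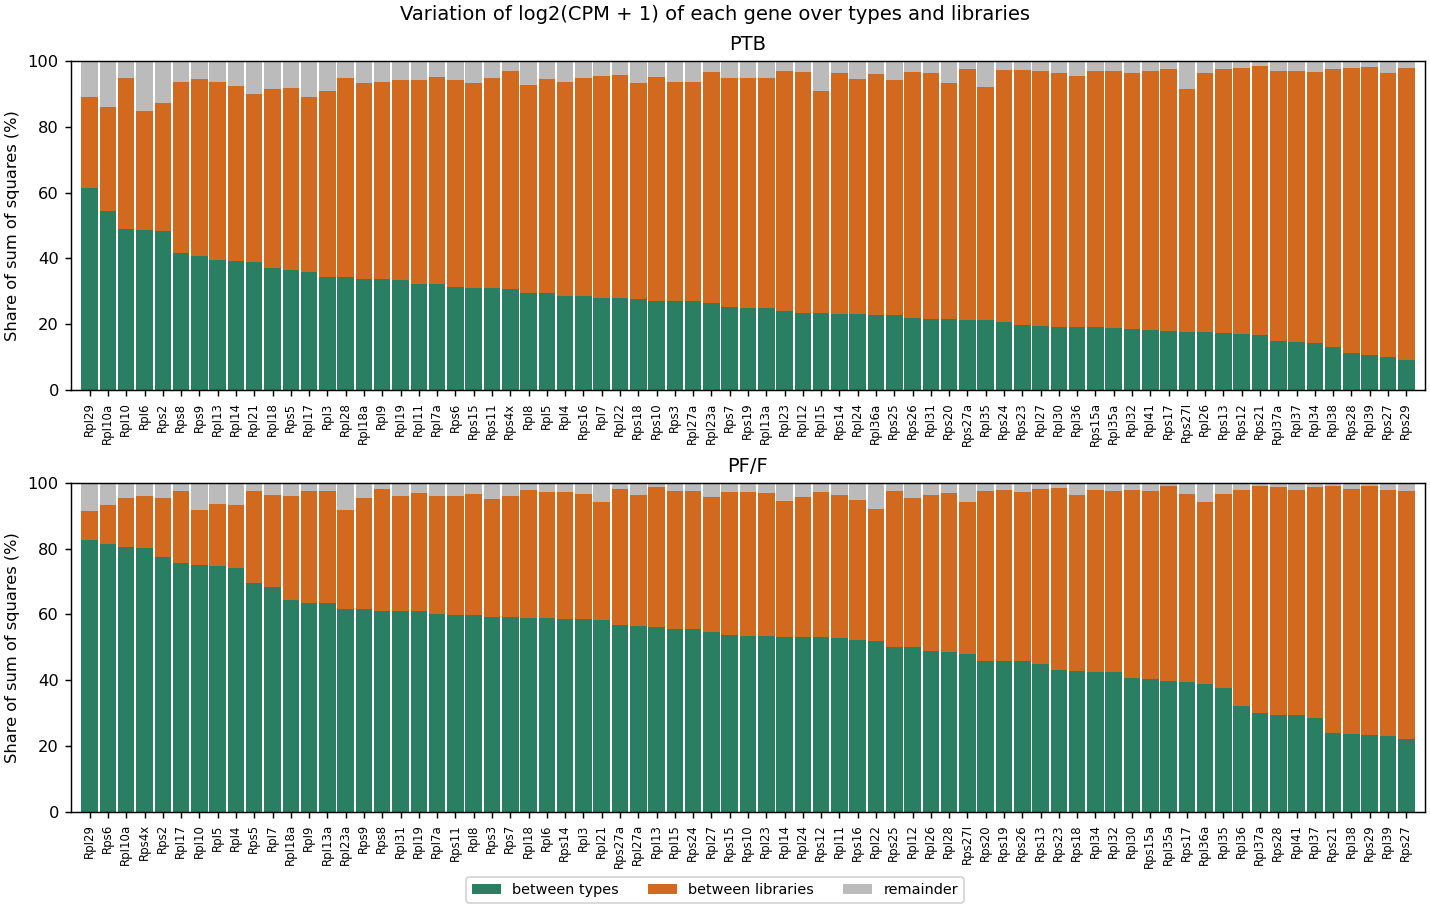
Share (%) of the sum of squares of log2(CPM + 1) that lies between cell types (green), between libraries (orange) and in the remainder (grey), 1 bar for each of the 73 ribosomal protein genes with a mean of at least 10 CPM, in PTB (upper) and PF/F (lower), sorted by the part between types. Orange fills most of the bar for nearly all genes in PTB, with a median of 69.9%, and a median of 42.5% in PF/F.

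The genes rose and fell across the types as one group. The correlation of a gene's log2(CPM + 1) with the summed share was at least 0.91 in both tissues, with a median of 0.98 over 15 PTB types and 0.99 over 14 PF/F types, where genes outside the pattern with at least 50 CPM had medians of 0.03 and 0.34. These points share libraries, depth and the total. The genes outside the symbols whose pattern was most like the summed share were Eef1a1 (r = 0.99), Rps3a1 (0.99), Rplp1 (0.99), Rplp0 (0.99) and Fau (0.98) in PTB, among 4309 genes compared, and Rps3a1 (1.00), Rack1 (1.00), Tpt1 (0.99), Park7 (0.99) and Naca (0.99) in PF/F, among 4356. Eef1a1 encodes the elongation factor that brings aminoacyl-tRNA to the ribosome, and Rack1 is a scaffold on the small subunit. The summed mitochondrially encoded share moved with it as well, at r = 0.94 in PTB and 0.90 in PF/F.

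Differences of single genes from the group were small. After division by the summed ribosomal protein count, the log2 range over the types had a median of 0.18 in PTB and 0.27 in PF/F over the 73 genes. The widest in PF/F was Rps27l, a paralog of Rps27 that is induced by p53, with a log2 range of 0.91. Its share of ribosomal protein UMIs was 0.339%, 0.263%, 0.310% and 0.356% in RL.early nuclei of WT 1, Tbx1+/- 1, WT 2 and Tbx1+/- 2, and 0.194%, 0.152%, 0.109% and 0.210% in Purkinje nuclei. RL.early was higher than Purkinje in each library, although the types were picked as the highest and the lowest of this gene. Rpl7 was at 1.33% ± 0.156 (SD, n = 4) of ribosomal protein UMIs in Immune nuclei, the highest type, and 0.943% ± 0.214 in Progenitors. Rpl31 was at 0.603% ± 0.0724 in GABA.interneuron and 0.442% ± 0.0517 in Purkinje. For Rps26 and Rps13 the highest type was Progenitors and the lowest Immune, at 1.77% ± 0.198 against 1.40% ± 0.0874 and at 1.53% ± 0.119 against 1.27% ± 0.0895. Most of the extremes of these last 4 genes thus fell in small types. Progenitors held 152 nuclei over the 4 libraries, Immune 385 and GABA.interneuron 406. The part of counting noise in these extremes was not tested.

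The gene with the largest part between types after that division in PTB was Rpl28, at 60.7%. It took 1.94%, 1.88%, 2.17% and 2.20% of ribosomal protein UMIs in Matured chondrocyte nuclei of WT 1, Tbx1+/- 1, WT 2 and Tbx1+/- 2, and 1.65%, 1.55%, 1.59% and 1.71% in CT3. The values of these types did not overlap, but the gene and both types were picked for their difference. Rpl22, a large subunit protein with a role in lymphocyte development, was highest in Matured chondrocyte as well (0.783% ± 0.0891, SD, n = 4) and lowest in CT4 (0.659% ± 0.0376), whereas Rps7 and Rpl15 were lowest in Matured chondrocyte, at 1.32% ± 0.0799 and 1.08% ± 0.122. Rpl23 ran from 2.63% ± 0.0961 in Matured osteoblasts/osteocyte to 2.35% ± 0.0679 in Osteoclast, and Rpl24, which takes part in a bridge between the subunits, from 1.47% ± 0.0661 in CP4 to 1.27% ± 0.158 in Matured osteoblasts/osteocyte. The smallest parts between types were those of Rps2, Rps28 and Rps29 in PTB and of Rpl39, Rpl29 and Rps29 in PF/F, for which 87.0% to 94.9% of the variation after division lay between libraries.

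Between the tissues the summed share did not differ beyond the spread of the libraries. Here and in the gene tests below, PTB stands for its annotated types, a part of the bone cells, while PF/F stands for nearly all of its nuclei. It was 3.05%, 2.45%, 1.37% and 1.97% in PTB WT 1, Tbx1+/- 1, WT 2 and Tbx1+/- 2, and 3.12%, 3.11%, 1.56% and 1.81% in the PF/F libraries. The ranges overlapped almost entirely. The means were 2.21% ± 0.711 (SD, n = 4) and 2.40% ± 0.835, with an exact two-sided permutation p of 0.686, and the smallest p that 4 against 4 libraries can give is 0.0286. This p takes no account of the replicate number or of mice shared between the tissues. In replicate 1 both PTB libraries were below both PF/F libraries, while in replicate 2 the tissues overlapped. The difference of -0.188 percentage points turned positive when types were weighted equally (0.0436), with all barcodes (0.0165) and with nuclei of at least 2000 genes (0.188).

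Few of the genes were called different between the tissues. A call needed an adjusted p under 0.05 over all genes in edgeR's quasi-likelihood test and a change above 1.5-fold. Of the 75 ribosomal protein genes tested, 3 were higher in PTB and 0 lower, where 28.1% and 32.5% of all 21176 genes were. At an unadjusted p under 0.05 there were 7, against 79.2% of all genes, and DESeq2 called 4 higher and 0 lower, against 28.9% and 31.5%. The median log2 change of the 75 was -0.15, against -0.05 over all genes. The ribosomal genes outside the pattern (0 higher and 1 lower of 12) were also rarely called, while 30 of 78 mitochondrial ribosomal protein genes, which serve the ribosome of the mitochondrion, were lower in PTB and 1 higher.

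The largest rise was that of Rpl39l, a paralog of Rpl39 that replaces it in the ribosomes of male germ cells (chr16:10170226-10174911, plus strand, GENCODE vM21 on GRCm38). It had 56, 55, 28 and 37 UMIs in the PTB libraries WT 1, Tbx1+/- 1, WT 2 and Tbx1+/- 2, or 1.28, 1.36, 0.835 and 1.06 CPM, and 1, 2, 0 and 4 UMIs in the PF/F libraries in the same order. No PF/F library reached the lowest PTB library. The log2 change was 4.72 ± 0.42 (SE; edgeR adjusted p = 1.86e-06), a value that depends on the prior count at such low levels. By PTB type its mean CPM was highest in CT3 and next in Osteoclast, on 3, 2, 4 and 6 UMIs and on 4, 2, 5 and 10 UMIs in WT 1, Tbx1+/- 1, WT 2 and Tbx1+/- 2, too few to order the types. Rpl39 itself was at 141 to 526 CPM in PTB and 149 to 515 CPM in PF/F, with a log2 change of -0.03 ± 0.46, and reads of near-identical paralogs can be split by the counting.

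Rpl3l, the paralog of Rpl3 known from striated muscle (chr17:24727820-24736143, plus strand), had 49, 39, 18 and 15 UMIs in the PTB libraries and 12, 14, 5 and 15 in the PF/F libraries, in the same order. In CPM these were 1.12, 0.961, 0.537 and 0.429 against 0.285, 0.337, 0.133 and 0.284, without overlap. The log2 change was 1.54 ± 0.37 (adjusted p = 0.00299). Muscle markers (Acta1, Myh3, Ttn and Ckm) summed to 71.4 to 265 CPM in the PTB libraries and 10.9 to 12.4 CPM in the PF/F libraries, and were highest in the 2 libraries where Rpl3l was highest. Their part in the level of Rpl3l was not tested. Rpl3 had a log2 change of -0.01 ± 0.21. Rpl10l, a paralog of Rpl10 used in the testis, had 1 UMI in the 8 libraries together and was not tested, and Rps27l had a log2 change of -0.17 ± 0.32.

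Of the major genes only Rpl4, a core protein of the large subunit, was called between the tissues. It was at 207, 200.03, 104 and 136 CPM in PTB WT 1, Tbx1+/- 1, WT 2 and Tbx1+/- 2 and at 117, 120, 79.7 and 82.4 CPM in PF/F. Within each replicate number both PTB libraries were above both PF/F libraries, although the 8 values overlapped. The log2 change was 0.69 ± 0.22 (edgeR adjusted p = 0.0152). Rps12 was at 715, 615, 286 and 391 CPM in PTB and 379, 403, 206 and 254 CPM in PF/F, a log2 change of 0.69 ± 0.29 that missed the threshold (adjusted p = 0.0524), and Rpl12 changed by 0.42 ± 0.28.

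With the replicate number as a block, 4 were higher and 1 lower, where the block fit called 28.3% and 32.7% of all genes, and 19 passed the adjusted p alone, as 81.8% of all genes did. With the pool of mice as the block, added after the data were seen, the calls were again 4 higher and 1 lower, against 28.2% and 32.6% of all genes (Rpl39l, Rpl4, Rps12 and Rpl3l higher, Rps27 lower). In that fit 37 of the 75 passed the adjusted p alone, as 16980 of all 21176 genes did. At an unadjusted p under 0.05 there were 40 (53.3%), against 81.3% of all genes. With the replicate block Rps12 was called higher (log2 change 0.65 ± 0.12, adjusted p = 0.000546). Rps27 (chr3:90212522-90213651, minus strand), a zinc-finger protein of the small subunit, was called lower (-0.60 ± 0.16, adjusted p = 0.00516). It was at 343, 221, 112 and 170 CPM in PTB and at 440, 496, 178 and 201 CPM in PF/F, so PTB lay below PF/F within each replicate number. Rpl7a (-0.55 ± 0.21, adjusted p = 0.0336) and Rpl9 (-0.53 ± 0.20, adjusted p = 0.0341) passed the adjusted p in the fit without the block but not the fold, as did Rpl29, while Rps29 (-0.49 ± 0.51) and Rpl15 (-0.46 ± 0.24) passed neither. Leaving out 1 library gave 2 to 5 calls higher and 0 to 4 lower, the most lower calls coming without PTB WT 1 (2 higher, 4 lower). For these fits too the share of all genes called is not given here.

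**Figure D4:**
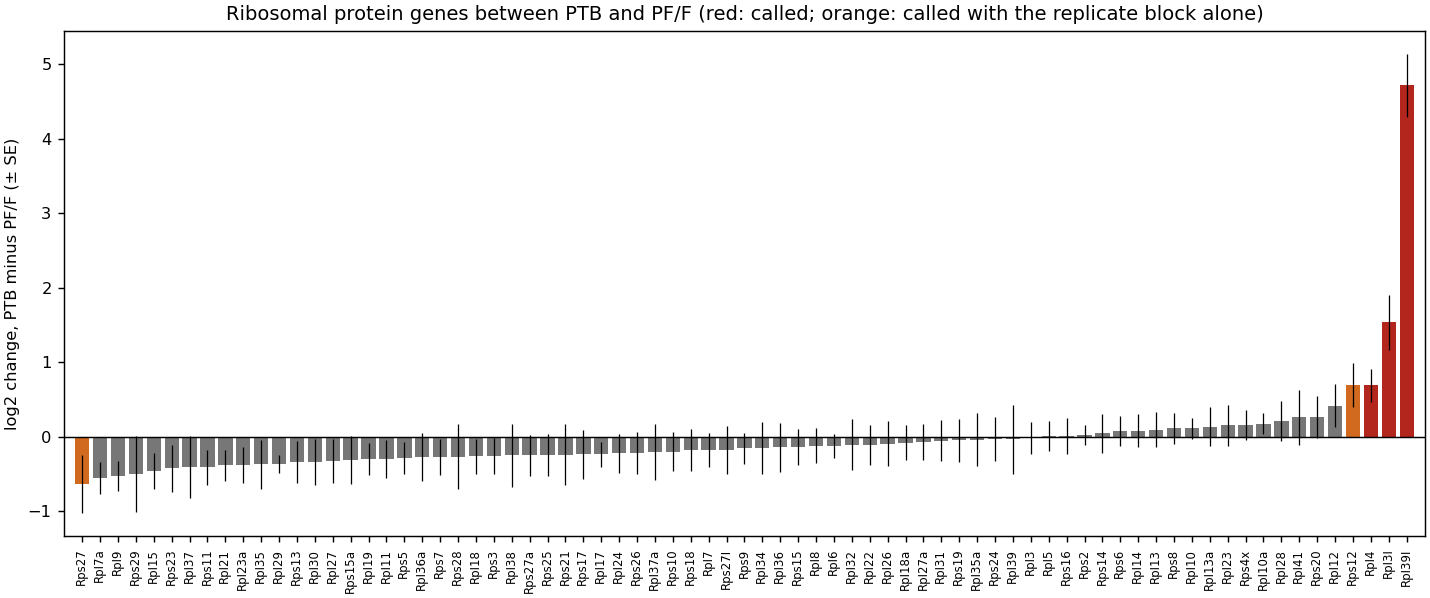
log2 change of CPM between PTB and PF/F for the 75 tested ribosomal protein genes, sorted, with bars from 0 and error bars of ± 1 SE from edgeR on 4 against 4 libraries; red marks genes called without the block and orange those called only with it. Bars run from -0.63 for Rps27 upwards, most lie below 0, and Rpl39l (4.72) and Rpl3l (1.54), both below 2 CPM, stand out on the right.

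The largest difference among the libraries was between the replicate numbers, a comparison added after the data were seen. Whether the numbers stand for the batches of animals is not given by the labels. All 4 replicate 1 libraries (2.45% to 3.12%) had a higher summed share than all 4 replicate 2 libraries (1.37% to 1.97%). The means were 2.93% ± 0.325 (SD, n = 4) and 1.68% ± 0.266, with an exact permutation p of 0.0286 over 8 libraries, the smallest the design can give. This p is too small where the tissues share mice. Permuted within tissue p was 0.0556, and over the 4 pools of mice, with the tissues averaged, it was 0.333, each the smallest that design can give, so the threshold could not be reached there. The pools were at 3.09% (WT) and 2.78% (Tbx1+/-) in replicate 1 and at 1.46% and 1.89% in replicate 2. By type, replicate 1 was higher on average in all 29 types with at least 20 nuclei in every library, and the 2 replicate numbers did not overlap in 14 of 15 PTB types and in 14 of 14 PF/F types. Matured chondrocyte nuclei were the exception. Within each tissue the libraries of replicate 2 also had more UMIs per nucleus (4071 to 5604, against 3002 to 4660) and a lower share of mitochondrially encoded UMIs (0.407% to 0.718%, against 0.967% to 1.43%), and the part of these in the difference was not tested. Ribosomal protein UMIs per nucleus were also fewer in replicate 2 within each tissue, 64.1 to 108 against 93.4 to 134.

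Gene by gene, 56 of the 75 were lower in replicate 2 and 0 higher in edgeR's test with the tissue as a term, against 2.2% of all 21176 genes lower, 1.05% higher and 3.25% in either direction. Their median log2 change was -0.75, and that of all genes 0.04. With the tissues summed per pool of mice, 2 pools against 2, 61 of the 75 were lower and 0 higher in edgeR's test, against 3.47% and 1.97% of all 22910 genes. The CPM values of the 4 replicate 1 and 4 replicate 2 libraries did not overlap, with replicate 2 lower, for 60 of the 75, against 3.15% of all 21176 genes, and with replicate 2 higher for 0, against 1.23%. Within a tissue, where only 2 libraries stand against 2, this held for 66 in PTB, against 24.5% of all genes, and for 74 in PF/F, against 31.3%. The opposite order held for 0 in either tissue, against 27.8% of all genes in PTB and 31.1% in PF/F. All 13 mitochondrially encoded mRNAs were lower as well, as were 6 of 12 ribosomal genes outside the symbols and 5 of 17 translation factors and similar mRNAs. Of the 78 mitochondrial ribosomal protein genes 2 were lower, and of the 24 ribosome biogenesis genes 1. Without each library in turn 41 to 65 of the ribosomal protein genes were lower and 0 higher, the smallest count without PTB WT 2. The share of all genes called in these fits is not given here, so these counts have no background beside them.

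The genes did not fall alike. The genes named in this paragraph were picked for their change. Rps29 (chr12:69157722-69159186, minus strand) fell most, from 739, 521, 890 and 1050 CPM in the replicate 1 libraries PTB WT, PTB Tbx1+/-, PF/F WT and PF/F Tbx1+/- to 194, 301, 245 and 306 CPM in the replicate 2 libraries in the same order. The 2 sets of libraries lay far apart. Its log2 change was -1.56 ± 0.17 (SE; edgeR adjusted p = 0.00253). Rpl39 (-1.41 ± 0.16), Rps28 (-1.31 ± 0.16), Rpl38 (-1.25 ± 0.16), Rpl37 (-1.24 ± 0.16) and Rps21 (-1.23 ± 0.16) came next. At the other end Rpl29 (chr9:106429454-106431568, plus strand) was at 116, 94.3, 150 and 133 CPM in the replicate 1 libraries and 87.3, 118, 117 and 130 CPM in those of replicate 2, which overlapped, with a log2 change of -0.09 ± 0.11 (adjusted p = 0.593). Rpl10 (-0.19 ± 0.13, adjusted p = 0.332) and Rps2 (-0.21 ± 0.12, adjusted p = 0.255) also missed the threshold.

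The size of the fall followed the length of the coding sequence. Without the minor paralogs, Spearman's rho across the 72 genes between the log2 change and coding length was 0.88, and with the 3 tested paralogs it was 0.79 over 75 genes. Genes are not independent replicates, and no p is given. The 24 genes with the shortest coding sequence (75 to 405 bases) had a median log2 change of -0.98, the 24 in the middle (405 to 552 bases) of -0.75 and the 24 longest (564 to 1257 bases) of -0.58. Over the same 75 genes, where coding length had a rho of 0.79, rho was 0.53 for the median length of a gene's coding transcripts and 0.17 for the span of the gene. Over these 75 genes, those that fell most were also those that rose least with depth (rho 0.74 between the log2 change and the depth ratio). They also had a higher level in barcodes of fewer than 1000 genes relative to nuclei (rho -0.53). Both measures were taken over the 8 libraries together, so libraries where a gene is higher weigh more in them. They are thus not independent of the change between replicates, and how much of these rho values comes from that was not tested. Rpl39l is as short as Rpl39 (153 bases) and changed by -0.43 ± 0.30, where Rpl39 fell by 1.41 on the log2 scale.

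**Figure D5:**
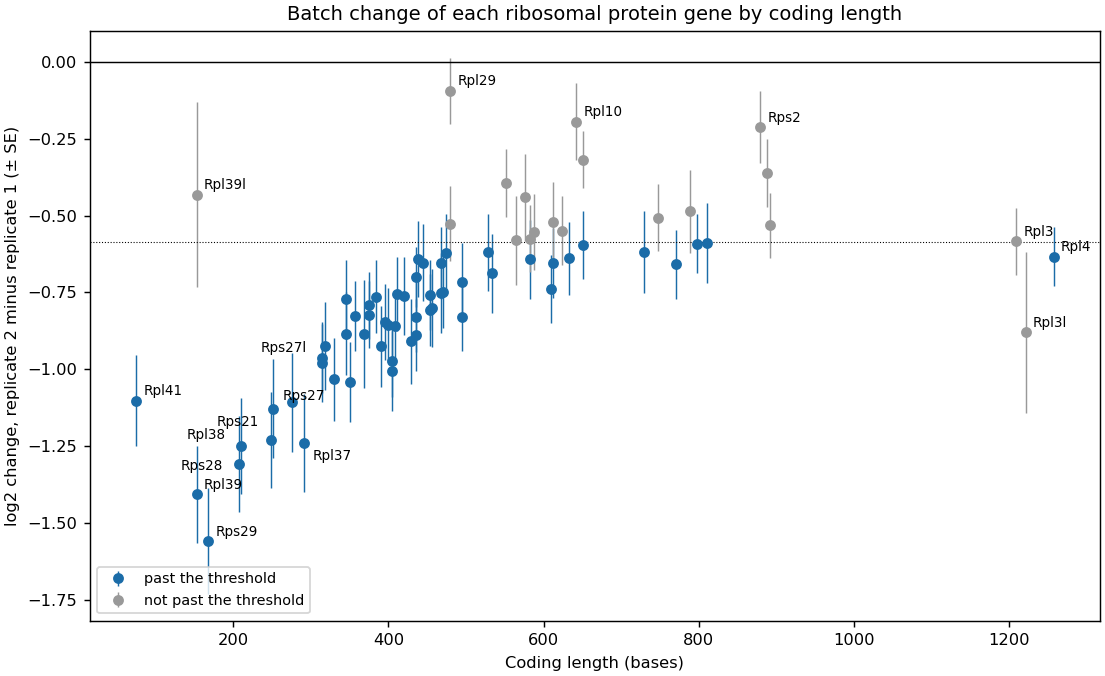
log2 change from replicate 1 to replicate 2 libraries (± 1 SE, edgeR with the tissue as a term) against coding length in bases for the 75 tested ribosomal protein genes; blue genes passed the threshold and the dotted line marks a 1.5-fold fall. The points climb from Rps29 at -1.56 and Rpl39 at -1.41 on the left towards -0.58 for the longest genes, and Rpl29, Rpl10 and Rps2 lie highest among the major genes.

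Of 12 genes with textbook roles outside translation or in inherited disease, 8 passed the threshold as lower in replicate 2, beside 56 of all 75, and 4 did not (Rpl10, Rpl5, Rps6 and Rps4x). Rpl10, linked to autism and leukaemia, was at -0.19 as given above. Rpl38, needed for axial skeleton patterning in mice, fell by 1.25 on the log2 scale. Rps19 and Rpl11, which like Rpl5 are lost in a congenital anaemia, changed by -0.83 ± 0.11 and -0.69 ± 0.13, and both passed the threshold. Rpl5 changed by -0.53 ± 0.11 and missed the fold, although its adjusted p was 0.0128. Rps27a, made as a fusion with ubiquitin, Rps14, haploid in a human blood disorder, Rpl22 and Rpl24 lay between -0.76 and -0.75, and Rpl13, mutated in a skeletal dysplasia, at -0.64 ± 0.12. Rps6, the kinase target of growth signalling, was at -0.51 ± 0.11 and the X-linked Rps4x at -0.49 ± 0.13, both past the adjusted p but not the fold. Among the paralog pairs Rps27 and Rps27l both fell (-1.13 ± 0.16 and -0.96 ± 0.12), while Rpl3 (-0.58 ± 0.11) and Rpl3l (-0.88 ± 0.26) were not called.

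Tbx1 genotype, the comparison the study was built for, was set against this spread. In PTB the summed share was lower in Tbx1+/- than in WT by 0.601 percentage points in replicate 1 and higher by 0.602 in replicate 2, so the mean difference was 0.000941. In PF/F the differences were -0.0116 and 0.250, with a mean of 0.119. The exact permutation p was 1 in both tissues, and 2 against 2 libraries cannot go below 0.333. By type the difference was negative in replicate 1 and positive in replicate 2 in all 15 PTB types. In PF/F it was positive in replicate 2 in all 14 types and negative in replicate 1 in 10.

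No ribosomal protein gene was called between genotypes, with 0 of 75 in PTB (0% of 20250 genes called in all) and 0 of 74 in PF/F (0% of 20756). At an unadjusted p under 0.05 edgeR had 0 of the genes in either tissue and DESeq2 0 as well, while 217 and 99 of all genes reached it with edgeR. The genes with the smallest p in PTB were Rps2, Rpl39l, Rpl3l, Rps27 and Rpl36a, and in PF/F Rpl3l, Rps2, Rps12, Rps14 and Rps27l. Rps2 was at 298 and 205 CPM in the WT and 257 and 299 CPM in the Tbx1+/- libraries of PTB, which overlapped, a log2 change of 0.14 ± 0.20 (adjusted p = 1.00). In PF/F the largest change was that of Rpl3l, 0.56 ± 0.47, on 12 and 5 UMIs in the WT and 14 and 15 in the Tbx1+/- libraries. With the replicate block 16 of the 74 genes (21.6%) had an unadjusted p under 0.05 in PF/F, against 626 of all 20756 genes (3.02%), and none was called. In that fit 73 of the 74 log2 changes were above 0, beside 51.2% of all genes, with a median of 0.12. The smallest p were those of Rps29 (log2 change 0.30 ± 0.06), Rps28 (0.24 ± 0.06) and Rpl39 (0.25 ± 0.07), genes picked here for that p, each with an edgeR adjusted p of 1.00. Of the genes named above, Rps12 was at 0.21 ± 0.07 and Rps14 at 0.19 ± 0.07. In PTB 72 of 75 were above 0 with the block, beside 49.4% of all genes, and 47 without it, and 0 had an unadjusted p under 0.05, against 5.15% of all genes. In both tissues the genes share the same few libraries, so their signs are not independent of each other. The summed share was lower in Tbx1+/- in replicate 1 and higher in replicate 2 in both tissues, as given above.

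Within single types there were also no calls, in 2116 tests of a ribosomal protein gene in a type (1 of all 348721 tests over genes and types, 0.000287%, was called), and 0 reached an unadjusted p under 0.05 with edgeR, against 1.58% of all tests. DESeq2 called 0 of them. With the replicate block 82 of the 2116 tests (3.88%) reached an unadjusted p under 0.05, 81 of them higher in Tbx1+/-, beside 4.13% of all tests. None of the 2116 was called, against 131 of all 348721 tests (0.0376%) with that block. These counts rested on all libraries being present. Without PTB WT 1, 206 calls appeared, all higher in Tbx1+/-, 60 of them in Osteoclast, 55 in CP1 and 40 in CP5. Without PTB WT 2, 30 appeared, all lower in Tbx1+/-, and without PF/F WT 1, 19, all higher. The direction thus turned with the WT library that was left out, the one with the highest or the lowest summed share in PTB, and of all tests 0.316%, 0.128% and 0.138% were called in these 3 fits. Without any of the other 5 libraries the count was 0.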

How the data were processed

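Nuclei of 8 libraries, 2 for each tissue and genotype, were sequenced with 3′ tags and unique molecular identifiers (UMIs). The deposited UMI counts were made by the authors with Cell Ranger 7.0.0 on mm10, introns included, and were raw counts per gene and barcode, before their removal of free RNA and of poor nuclei. Nuclei and cell types were those of the deposited annotation. A doublet step by the authors is not given in the sources used here and no doublet caller was run, leaving out the 8% of nuclei with most UMIs being an alternative, and 3′ counts were not divided by length. UMIs were summed per library, and per library and type, and given as CPM or as a share of all UMIs. Types needed at least 20 nuclei in every library to be ordered. Some PF/F types are not reported here by name, although they enter the counts over types.

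Genes were tested with edgeR 4.0.16 in R 4.3.3 (quasi-likelihood test, TMM factors, its filter on low counts, Benjamini-Hochberg adjustment over all genes). A call needed an adjusted p under 0.05 and a change above 1.5-fold, and DESeq2 1.42.0 was an alternative. Standard errors were obtained from each log2 change and its F statistic. Summed shares were compared with exact two-sided permutation tests over libraries. Genes were named by fixed rules: the paralog pairs, those with textbook roles, the largest and smallest parts between types after division by the ribosomal protein sum, the 5 largest rises and falls between tissues, the 5 smallest p between genotypes in each tissue and the 5 genes most like the summed share. The genes, lists and rules were chosen with earlier results of these data known. Genes named for their change between replicates were chosen after their values were seen. Replicate numbers were taken as the study's separate batches of animals, since the labels give only the number, and deviations of libraries with the same number correlated within a tissue (r = 0.478 over 20250 genes in PTB and 0.55 over 20756 genes in PF/F). The p-values measure the spread between libraries of pooled mice, and those over both tissues count libraries that appear to share mice as separate. Fits with these pools as a block or summed were added after the data were seen. The fits were tested on simulated data with a log2 change of 1 set in 200 genes. Of these, edgeR recovered 98% between tissues and 100% between replicates, but 74.5% between genotypes in PTB and 57.5% in PF/F. Its false calls between genotypes were 20 and 8, and those of DESeq2 47 and 37. Smaller changes were not simulated. These percentages cover the 200 genes together, and recovery for ribosomal protein genes alone was not tested. Between genotypes, without the block, their standard errors ran from 0.18 (Rpl6) to 0.64 (Rps29) in PTB. In PF/F they ran from 0.16 (Rpl29) to 0.79 (Rps29). The recovery thus does not show how large a genotype change could have been called in these genes.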

Additional observations from a re-analysis of the deposited data

How the results depend on the processing

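The summed share between the tissues (-0.188 percentage points) turned positive with all barcodes (0.0165), with at least 2000 genes (0.188) and with types weighted equally (0.0436), and ran from -0.469 to 0.0914 without 1 library each. Between genotypes the PTB difference turned negative with all barcodes (-0.0684) and in replicate 1 only (-0.601) and ran from -0.837 to 0.839 without 1 library each, and the PF/F difference was -0.0116 in replicate 1 only and ran from -0.664 to 0.903. The share ratio of Matured chondrocyte over Osteoclast (2.35) was 1.57 in nuclei at or under the median mitochondrial percentage, 1.37 at 2000 to 4000 UMIs and 1.11 as UMIs per nucleus. For GNP over Purkinje (2.56) it was 2.11 without the 8% of nuclei with most UMIs, 2.08 with at least 2000 genes, 1.65 at 2000 to 4000 UMIs and 1.04 as UMIs per nucleus. The median part between types was 11.5% in PTB and 38.3% in PF/F for types of at least 100 nuclei, and 18.5% to 40.9% in PTB without 1 library each. The 3 calls between the tissues became 6 without the fold threshold, where 78% of all genes passed. They became 5 with the replicate block or the pool of mice as block, and 3 to 6 without 1 library each. Without the fold threshold 19 passed with the replicate block, against 81.8% of all genes, and 37 with the pool of mice as block, against 16980 of all 21176 genes. The replicate block changed no other call of a ribosomal protein gene. By type, genotype calls ran from 0 to 206 without 1 library each, where the arm left with 1 library is assumed to vary like the other. The batch comparison, chosen after seeing the data, gave 41 to 65 calls without 1 library each and 61 with the tissues summed per pool of mice, all lower in replicate 2. In that summed fit 3.47% of all genes were lower. Its difference in share (-1.26 percentage points) kept its size but missed 0.05 when permuted within tissue (p = 0.0556, exact permutation) or over the 4 pools (p = 0.333, exact permutation), the smallest p these designs allow. The cause of these shifts was not tested. Genes of a few UMIs, such as Rpl10l, are limited by depth.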
